A study of Mus musculus with 2 samples.

Results

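Replication-dependent histone genes were followed across the cells of 2 libraries of tumor endothelium. The members were the genes whose symbols begin with Hist1h, Hist2h, Hist3h or Hist4h and that had at least 20 UMIs (unique molecular identifiers, which count RNA molecules) over both libraries. This rule kept 61 of the 67 genes with such a symbol, of 32285 genes in all. Just inside the threshold lay Hist1h2bp and Hist1h3h with 21 UMIs each, and outside it Hist1h2bl with 15, Hist1h2ao with 9 and Hist2h2aa2 with 1, while Hist1h2bq, Hist1h2ba and Hist1h2aa had 0. The members comprised 6 genes of the linker histone H1, 15 of H2A, 15 of H2B, 12 of H3 and 13 of H4. They were chosen by their summed UMIs and symbols, so their total levels are a description. These were 71600 UMIs in the Cre plus library and 82117 in the Cre minus library, or 1073 and 1067 CPM (UMIs per 1000000 UMIs) over all barcodes.

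Both libraries came from skin tumors of B16F10-OVALBUMIN/VEGFC. This is a melanoma line from mouse that makes the model antigen ovalbumin and the lymphangiogenic factor VEGF-C. In each group 500K cells were implanted, tumors were collected on day 15, and 3 tumors were pooled before sorting live (DAPI-) CD31+ CD45- cells. The host mice were Ifngr1iProx1 (Cre plus) or Ifngr1WT (Cre minus). Ifngr1 encodes part of the receptor for interferon-γ. The Cre is named for Prox1, a transcription factor that lymphatic endothelium needs for its identity. How and when the Cre was induced, which part of Ifngr1 it removes, and the age and strain of the mice are not given in the sources used here. The tumor cells are an implanted line and do not carry the host genotype. Each genotype gave 1 single-cell 3′ library, so no test of the genotype was possible. The 95% intervals in brackets are exact and cover counting error only, not differences between animals, tumors or sorts. Those of ratios and levels treat each UMI as a separate draw, so they leave out differences between barcodes too.

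Histones H2A, H2B, H3 and H4 form the core around which DNA is wound, and H1 binds the linker between cores. The replication-dependent genes supply these proteins while DNA is copied, so their mRNAs are abundant in S phase and are degraded when replication ends. Most of these mRNAs end in a conserved stem-loop instead of a poly(A) tail. The stem-loop is bound by SLBP, and the U7 small nuclear RNP directs the cut after it. Libraries primed on poly(A), as 3′ single-cell libraries are, capture such ends poorly, and several members are also known to make polyadenylated transcripts.

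Cells were named from gene lists that hold no histone gene. Lymphatic endothelial (LEC-like) barcodes numbered 850 in Cre plus against 238 in Cre minus, blood endothelial (BEC-like) barcodes 207 and 238, and melanoma-like barcodes 472 and 814. The last class was 26.5% and 52.4% of kept barcodes although the sort was for CD31+ cells. Every marker of each class was detected in it, that is 9 of 9, 11 of 11 and 9 of 9. Median depth was 12961 and 5590 UMIs in LEC-like, 13638 and 9260 in BEC-like and 18962 and 17840.5 in melanoma-like barcodes. Barcodes with at least 0.1% of UMIs from the nuclear RNA Malat1 (Malat1-rich) were 52.5% and 17.2%, 70.0% and 58.4%, and 43.9% and 44.5% of the same classes. Ifngr1 itself stood at 28.6 and 43.9 CPM in LEC-like barcodes, a log2 ratio of −0.62 [−0.94, −0.28], and at 182 and 152 CPM in BEC-like barcodes. Among Malat1-rich LEC-like barcodes it stood at 32.4 and 81.0 CPM (−1.32 [−1.69, −0.94]). A 3′ tag can lie outside the deleted part, so these values do not measure recombination. The libraries shared 1 barcode. Within each class, barcodes with at least 20 UMIs per 10000 from 36 S-phase genes were called S-high, others with as many from 41 G2 and M genes G2M-high, and those under 10 for both lists low. Neither list holds a histone gene, and the names describe gene levels, not measured DNA content.

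The stem-loop was searched for first, because it decides how such an mRNA is cut and whether a poly(A)-primed library can read it. The 16-base motif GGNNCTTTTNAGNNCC was present on the sense strand of the GENCODE M21 transcript models (GRCm38, also called mm10) of 42 of the 61 members, 68.9%, against 54 of 58732 other protein-coding transcripts, 0.0919%. The commonest form, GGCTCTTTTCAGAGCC, was in 24 members, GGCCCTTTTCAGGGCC in 7 and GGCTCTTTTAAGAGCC in 6. The following stretches, 5′ to 3′ with the motif in capitals, come from members that the results below turn on, and they differ little around the motif.
Hist1h2ap: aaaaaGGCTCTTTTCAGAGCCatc
Hist1h2ab: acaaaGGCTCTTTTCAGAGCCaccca
Hist1h3c: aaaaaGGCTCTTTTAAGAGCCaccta
Hist1h2ae: acaaaGGCTCTTTTCAGAGCCattca
Hist1h4d: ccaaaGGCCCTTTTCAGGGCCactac
Hist1h1e: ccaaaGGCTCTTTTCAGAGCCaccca
Hist1h1c: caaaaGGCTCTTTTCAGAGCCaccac
Hist3h2a: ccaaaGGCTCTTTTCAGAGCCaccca
Hist2h3c2: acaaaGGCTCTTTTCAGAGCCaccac
What differed was how far each model runs past the motif. The Hist1h2ap model ends 3 bases after it, that of Hist1h2ab 11 and that of Hist1h3c 74. The model of Hist1h2ae goes on for 151 bases, of Hist2h3c2 for 377, of Hist1h4d for 770, of Hist1h1c for 840, of Hist1h1e for 1153 and of Hist3h2a for 1643. Of these 6, the extensions of Hist1h2ae, Hist1h1c and Hist3h2a hold the polyadenylation signal AATAAA. In all, 20 members end within 100 bases after the motif, 13 run further with an AATAAA, 9 run further without one, and 19 models hold no match. Among the latter are Hist1h2bc, whose 1156-base model holds 1 AATAAA, Hist1h1b, Hist1h1a, Hist1h2af and Hist2h2be. A model without a match says only that these letters are not in it, since some models stop at the end of the coding sequence.

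Promoters are shown for 4 members that behave differently below. Hist1h2ap and Hist1h1b were near 0 in melanoma-like barcodes, Hist1h2ae was high in S-high barcodes of every class, and Hist3h2a was lower there. Each line gives the 150 bases before the outermost annotated start, 5′ to 3′ on the gene's strand, from the RefSeq promoter table on GRCm38.p6. Capitals mark the CCAAT box (CCAAT), the TATA box (TATAAA) and the octamer bound by OCT factors (ATTTGCAT), on either strand.
Hist1h2ap, chr13:21833508-21833657 (minus strand): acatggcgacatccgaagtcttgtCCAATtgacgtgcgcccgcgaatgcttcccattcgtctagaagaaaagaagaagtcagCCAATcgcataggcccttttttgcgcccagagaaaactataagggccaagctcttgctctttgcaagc
Hist1h1b, chr13:21780626-21780775 (minus strand): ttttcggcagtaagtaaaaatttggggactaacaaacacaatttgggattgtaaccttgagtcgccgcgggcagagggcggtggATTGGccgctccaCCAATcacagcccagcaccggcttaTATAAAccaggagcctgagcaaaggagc
Hist1h2ae, chr13:23571221-23571370 (minus strand): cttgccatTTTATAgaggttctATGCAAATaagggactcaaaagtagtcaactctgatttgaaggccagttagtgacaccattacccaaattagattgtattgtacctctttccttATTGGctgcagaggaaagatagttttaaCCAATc
Hist3h2a, chr11:58954535-58954684 (plus strand): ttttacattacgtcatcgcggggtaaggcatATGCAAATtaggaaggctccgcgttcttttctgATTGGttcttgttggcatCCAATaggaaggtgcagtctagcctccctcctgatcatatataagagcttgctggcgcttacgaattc
Over windows of 300 bases (250 before and 50 after the RefSeq start), 56 of the 61 members had an entry, Hist1h2bc not among them. CCAAT was in 83.9% of these members and in 37.4% of all 32851 promoters. It was found in all entries of H1, H2A, H2B and H3 but in 3 of 12 of H4. TATAAA was in 58.9% against 13.6%, and the octamer ATTTGCAT in 12 members, 21.4% against 1.74%, of which 6 were H2A and 6 H2B genes. The motifs do not overlap each other in the 4 stretches. The stretches of both Hist1h2ae, higher in S-high barcodes, and Hist3h2a, lower in them, hold the octamer and CCAAT. The stretch of Hist1h2ae lies between that gene and Hist1h2bg, which starts at 23571396 on the other strand. Its octamer and TATA match lie at the end towards Hist1h2bg, so they cannot be assigned to Hist1h2ae. Neighbouring H2A and H2B genes that point apart can share a site, so 1 site may be counted for both.

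Close copies limit what can be said of single members. Of the 61 members, 54 share at least one 50-base stretch of their transcript models with another histone gene, and 7 share none: Hist2h2be, Hist2h2bb, Hist4h4, Hist3h2ba, Hist1h1b, Hist1h1t and Hist1h1a. Shared windows made up 93.1% of the model of Hist1h2ap, 99.8% of Hist1h2br, 90.7% of Hist1h2ah, 89.2% of Hist2h2aa1, 43.2% of Hist1h2ae and 29.4% of Hist1h2bc. Hist1h2be and Hist1h1e also overlap on the same strand of chromosome 13. Values of these genes are therefore uncertain where the counting could divide or drop shared reads.

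Summed over members, the level was alike in melanoma-like barcodes of both libraries, at 1143 and 1119 CPM, and in BEC-like barcodes, at 940 and 893 CPM. LEC-like barcodes stood at 1189 CPM in Cre plus against 412 CPM in Cre minus. The Cre plus value was thus near that of the other classes and the Cre minus value below all of them. H2A genes gave the largest share of member UMIs in all 3 classes, 55.2% and 45.0% in LEC-like and 39.9% and 41.4% in melanoma-like barcodes. H2B genes made up 7.70% and 13.6% of member UMIs in LEC-like but 28.3% and 26.2% in melanoma-like barcodes. By class, LEC-like barcodes had 245 and 82.5 CPM of H1, 656 and 185 of H2A, 91.6 and 55.8 of H2B, 74.0 and 27.2 of H3 and 123 and 61.0 of H4. Melanoma-like barcodes had 160 and 150, 456 and 464, 324 and 293, 72.8 and 74.5, and 130 and 138 CPM of the same classes. BEC-like barcodes had 170 and 207, 483 and 406, 121 and 110, 49.4 and 59.9, and 116 and 111 CPM.

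Few members gave most of these UMIs. In the H1 class Hist1h1e had 11190 UMIs over both libraries, Hist1h1c 7135 and Hist1h1b 3775. The leading H2A genes were Hist1h2ae with 33629, Hist1h2ap with 11235 and Hist1h2ab with 6976, and the leading H2B genes Hist1h2bc with 27090, Hist1h2be with 2488 and Hist1h2bj with 1108. H3 was led by Hist1h3c with 3046, Hist1h3e with 2560 and Hist1h3f with 2333, and H4 by Hist1h4d with 9966, Hist1h4h with 2947 and Hist1h4c with 2017. These are 3′ tags, so the counts are not divided by gene length. All but 12 members lie on chromosome 13, with 9 on chromosome 3, 2 on chromosome 11 and 1 on chromosome 6.

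The other members had fewer UMIs or were not singled out by the rule for named genes. The H1 genes were Hist1h1d with 2113 and Hist1h1t, the testis variant, with 192. The H2A genes were Hist2h2ac with 5421, Hist1h2ac with 1787, Hist1h2ag with 345, Hist1h2ai with 329, Hist1h2an with 130, Hist2h2ab with 129, Hist1h2ak with 126, Hist1h2ah with 97 and Hist1h2ad with 89. The H2B genes were Hist1h2bb with 1048, Hist2h2bb with 931, Hist1h2bg with 650, Hist2h2be with 538, Hist1h2bh with 503, Hist1h2br with 202, Hist1h2bm with 136, Hist1h2bn with 122, Hist1h2bk with 80, Hist3h2ba with 56, Hist1h2bf with 30 and Hist1h2bp with 21. The H3 genes were Hist2h3b with 362, Hist1h3g with 298, Hist1h3a with 276, Hist1h3i with 132, Hist2h3c1 with 129 and Hist1h3h with 21. The H4 genes were Hist1h4i with 1765, Hist1h4a with 583, Hist2h4 with 260, Hist4h4 with 222, Hist1h4n with 170, Hist1h4b and Hist1h4f with 97 each, Hist1h4m with 58, Hist1h4k with 32 and Hist1h4j with 26.

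The cycle comparison asked how the members differ between S-high and low barcodes of the same class and library. Barcodes high on both cycle lists are called S-high, so this comparison does not separate S phase from G2 and M. Median log2 ratios of the G2 and M list were 4.39 and 4.68 in LEC-like and 4.66 and 5.50 in melanoma-like barcodes. Those of the S-phase list were 3.81 and 3.72, and 4.30 and 4.07. In BEC-like barcodes the G2 and M list stood at 4.95 and 5.28 and the S-phase list at 4.14 and 4.57. The sum of members was higher in S-high barcodes in all 3 classes and in both libraries. In LEC-like barcodes it was 3742 against 223 CPM in Cre plus, a log2 ratio of 4.07 [3.998, 4.14], and 1609 against 129 CPM in Cre minus, 3.64 [3.37, 3.91]. BEC-like barcodes gave 5235 against 275 CPM, 4.25 [4.14, 4.37], and 1902 against 207 CPM, 3.20 [3.03, 3.37]. The ratio was smaller in melanoma-like barcodes, at 2427 against 480 CPM, 2.34 [2.30, 2.38], and 2536 against 471 CPM, 2.43 [2.40, 2.46]. Low melanoma-like barcodes had a higher CPM of members than low endothelial ones in both libraries. Of the 7457 and 14193 member UMIs in low melanoma-like barcodes, 10927 in all were from Hist1h2bc, a gene lower in S-high ones. The LEC-like value of Cre minus rests on few barcodes, since 1 of its 31 S-high barcodes held 243 of their 594 member UMIs, and without the 5 richest barcodes of each group the log2 ratio was 0.69. In BEC-like barcodes the log2 ratio was 4.44 and 1.41 when only Malat1-rich barcodes were used and 2.54 and 5.09 with Malat1-poor ones. Without the 5 richest barcodes it was 2.97 and 2.18 there, 3.55 in LEC-like Cre plus, and 1.82 and 2.18 in melanoma-like barcodes.

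Single members mostly went with the sum. Among members with at least 20 UMIs in the comparison, 37 of 40 in LEC-like Cre plus were at least 2-fold higher in S-high barcodes, where 6.3% of all genes tested were, and 7 of 9 in Cre minus, where 14% were. The counts were 22 of 24 (8.69% of all genes) and 12 of 15 (13%) in BEC-like, and 30 of 37 (8.38%) and 32 of 40 (7%) in melanoma-like barcodes. At least 2-fold lower were 0 of the members in LEC-like Cre plus (5.07% of all genes), 2 in LEC-like Cre minus (5.48%), 1 and 0 in BEC-like (9.64% and 13.4%) and 1 and 2 in melanoma-like barcodes (5.58% and 6.34%). The median log2 ratio of the members was 4.08 in LEC-like Cre plus, against −0.02 for all genes, and 3.07 and 2.93 in melanoma-like barcodes, against 0.04 and −0.05.

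**Figure D1:**
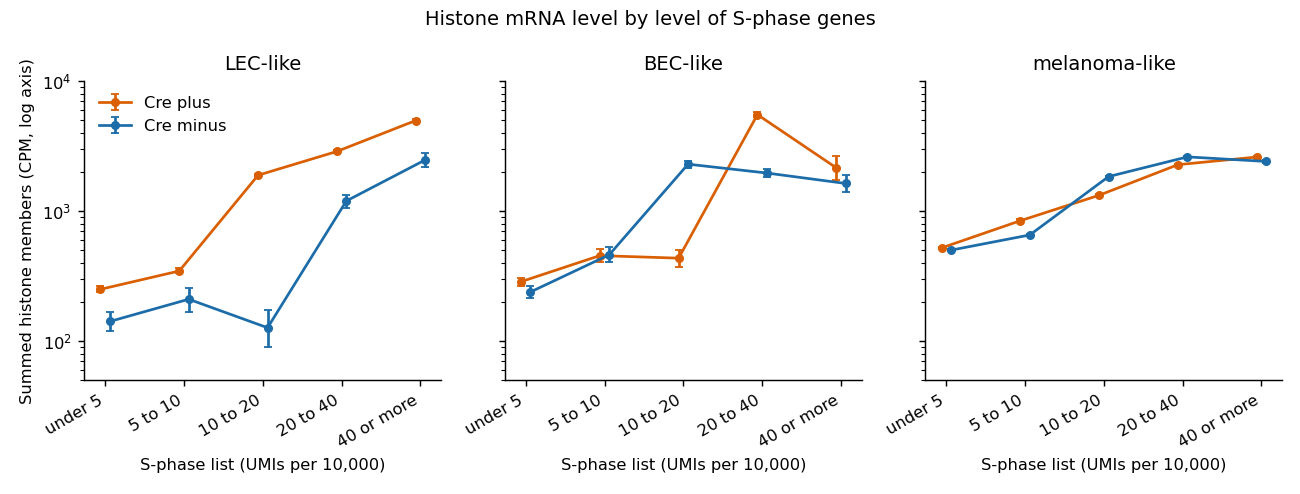
Summed CPM of the 61 members (y axis, log scale) against the level of the 36 S-phase genes in UMIs per 10000 (x axis, 5 bins), for LEC-like, BEC-like and melanoma-like barcodes of Cre plus (orange) and Cre minus (blue), with exact 95% Poisson intervals as bars. In melanoma-like barcodes the lines of both libraries lie close together from 520 and 500 CPM in the lowest bin upward, while in LEC-like barcodes Cre minus lies below Cre plus in every bin.

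The level was also read in steps of the S-phase genes. In LEC-like Cre plus it was 249.8 CPM in barcodes with under 5 S-phase UMIs per 10000, 346 from 5 to 10, 1885 from 10 to 20, 2873 from 20 to 40 and 4967 from 40. In Cre minus it was 141, 210, 126, 1195 and 2472 CPM in the same bins, the last from 8 barcodes. Each Cre minus bin was below the Cre plus bin of the same S-phase level. Melanoma-like barcodes went from 520 and 499.9 CPM through 842 and 654, 1322 and 1841 and 2273 and 2609 to 2603 and 2405. BEC-like barcodes of Cre plus had 286, 454, 434, 5517 and 2151 CPM and those of Cre minus 238, 461, 2293, 1960 and 1629 CPM, with 4 and 9 barcodes in the highest bin. Cre minus was thus highest in the bin from 10 to 20 and Cre plus in that from 20 to 40.

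Linker histone genes split by member. Hist1h1b had 490 CPM in S-high and 2.97 CPM in low LEC-like barcodes of Cre plus, a log2 ratio of 7.36 [6.81, 7.98], and in Cre minus 50 UMIs against 0. In BEC-like barcodes it had 202 UMIs against 0 and 142 against 1. In all 4 endothelial groups nearly all of its UMIs were thus on the S-high side of this comparison. Hist1h1a, a rarer H1 gene, had 53 UMIs against 1 in LEC-like Cre plus and 9 against 0 in Cre minus. Hist1h1e stood at 202 against 32.7 CPM in LEC-like Cre plus (2.63 [2.43, 2.83]), 127 against 15.7 CPM in Cre minus (3.02 [2.21, 3.89]), and at 3.25 and 3.85 in melanoma-like barcodes. Hist1h1c differed less. It stood at 46.9 against 16.6 CPM in LEC-like Cre plus (with an interval of the log2 ratio from 1.17 to 1.84) but at 2 UMIs against 20 in Cre minus (−1.69 [−4.83, 0.35]), and at 48.2 against 45.5 and 64.1 against 44.0 CPM in melanoma-like barcodes (0.08 [−0.10, 0.26] and 0.54 [0.41, 0.67]). The class as a whole stood at 3.88 and 3.27 in LEC-like and 2.19 and 2.41 in melanoma-like barcodes.

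H2A held the members with the widest range. Hist1h2ap had 1324 against 12.2 CPM in LEC-like Cre plus (6.76 [6.48, 7.05]) and 163 UMIs against 0 in Cre minus, and 1095 UMIs against 16 and 203 UMIs against 3 in BEC-like barcodes. Hist1h2ae, the member with the most UMIs, had 561 against 11.4 CPM in LEC-like Cre plus (5.62 [5.33, 5.92]), 249 against 6.12 CPM in Cre minus (5.35 [4.25, 6.70]), and 859 against 23.8 and 1013 against 17.6 CPM in melanoma-like barcodes (5.18 [5.02, 5.33] and 5.85 [5.72, 5.98]). It was higher in S-high barcodes of every class and library. Hist1h2ab stood at 7.09 [6.24, 8.10] in LEC-like Cre plus and at 5.84 and 6.42 in melanoma-like barcodes. Hist1h2af had 49 UMIs against 0 in LEC-like Cre plus and 175 against 1 and 312 against 2 in melanoma-like barcodes, and was the highest of the ranked members there with both libraries summed (487 against 3 UMIs, 8.49 [6.94, 10.8]). Hist3h2a went the other way: it had 7.27 against 14.4 CPM in LEC-like Cre plus (−0.99 [−1.68, −0.35]), 9.09 against 24.0 and 10.9 against 32.9 CPM in melanoma-like barcodes (−1.40 [−1.78, −1.03] in Cre plus, and from −1.86 to −1.34 in Cre minus), and −1.04 and −0.61 in BEC-like barcodes. Hist2h2aa1 lay between, at 0.76 in LEC-like Cre plus and 1.69 and 1.68 in melanoma-like barcodes. As a class H2A had the highest ratio of the 5 in LEC-like Cre plus, 5.19, and 3.98 and 4.25 in melanoma-like barcodes.

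H2B differed from the other core histones mainly through 1 gene. Hist1h2bc, which gave most H2B UMIs, had 19.4 CPM in S-high and 33.9 CPM in low LEC-like barcodes of Cre plus (−0.81 [−1.22, −0.41]) and 6 UMIs against 41 in Cre minus (−1.14 [−2.67, 0.10]). In melanoma-like barcodes it had 162 against 236 and 147 against 241 CPM (−0.55 [−0.64, −0.45] and −0.71 [−0.78, −0.64]), and in BEC-like barcodes 66.9 against 64.5 and 38.2 against 49.6 CPM. Over the S-phase bins of melanoma-like barcodes it went from 257 and 256 CPM in the lowest through 388 and 301 to 130 and 107 CPM in the highest, a peak in the bin from 5 to 10 in both libraries. Other H2B genes with at least 50 UMIs were higher in S-high LEC-like and melanoma-like barcodes with both libraries summed, with 1 exception. Hist2h2be had 95 UMIs against 175 in melanoma-like barcodes (0.27 [−0.11, 0.64]). Hist1h2bj stood at 4.02 [3.37, 4.74] in LEC-like Cre plus and at 5.34 and 5.63 in melanoma-like barcodes, and Hist1h2be at 2.80 and at 2.79 and 2.23. With Hist1h2bc in it, the H2B class stood at 1.94 and 1.63 in LEC-like and at 0.27 [0.20, 0.35] and 0.10 [0.04, 0.16] in melanoma-like barcodes.

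H3 and H4 genes were higher in S-high barcodes to different degrees. Hist1h3c had 247 UMIs against 12 in LEC-like Cre plus (5.77 [4.94, 6.74]), 15 against 1 in Cre minus, and 62.9 against 1.09 and 73.0 against 0.46 CPM in melanoma-like barcodes (5.84 and 7.29). Hist1h3b, with 102 UMIs against 2 in LEC-like Cre plus (7.08 [5.19, 10.1]), had 3 against 0 and 2 against 1 in melanoma-like barcodes. Hist1h3f stood at 4.24 and Hist1h3e at 3.53 in LEC-like Cre plus. Among H4 genes, which lack most of the CCAAT matches above, Hist1h4d stood at 2.55 [2.33, 2.78] in LEC-like Cre plus, 2.52 in Cre minus, and 2.84 and 2.73 in melanoma-like barcodes. Hist1h4h stood at 2.39, and Hist1h4c at 2.35 in LEC-like Cre plus. A pair of H3 genes and 1 H4 gene did not follow in melanoma-like barcodes. With both libraries summed, Hist2h3c2 had 6 UMIs in S-high against 54 in low barcodes (−2.02 [−3.53, −0.81]), Hist1h3d 32 against 67 (0.08 [−0.57, 0.71]) and Hist1h4i 236 against 461 (0.18 [−0.05, 0.41]). The H3 class stood at 4.35 and 4.60 in LEC-like and 3.62 and 3.84 in melanoma-like barcodes, and H4 at 2.46 and 2.56, and 2.39 and 2.30.

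**Figure D2:**
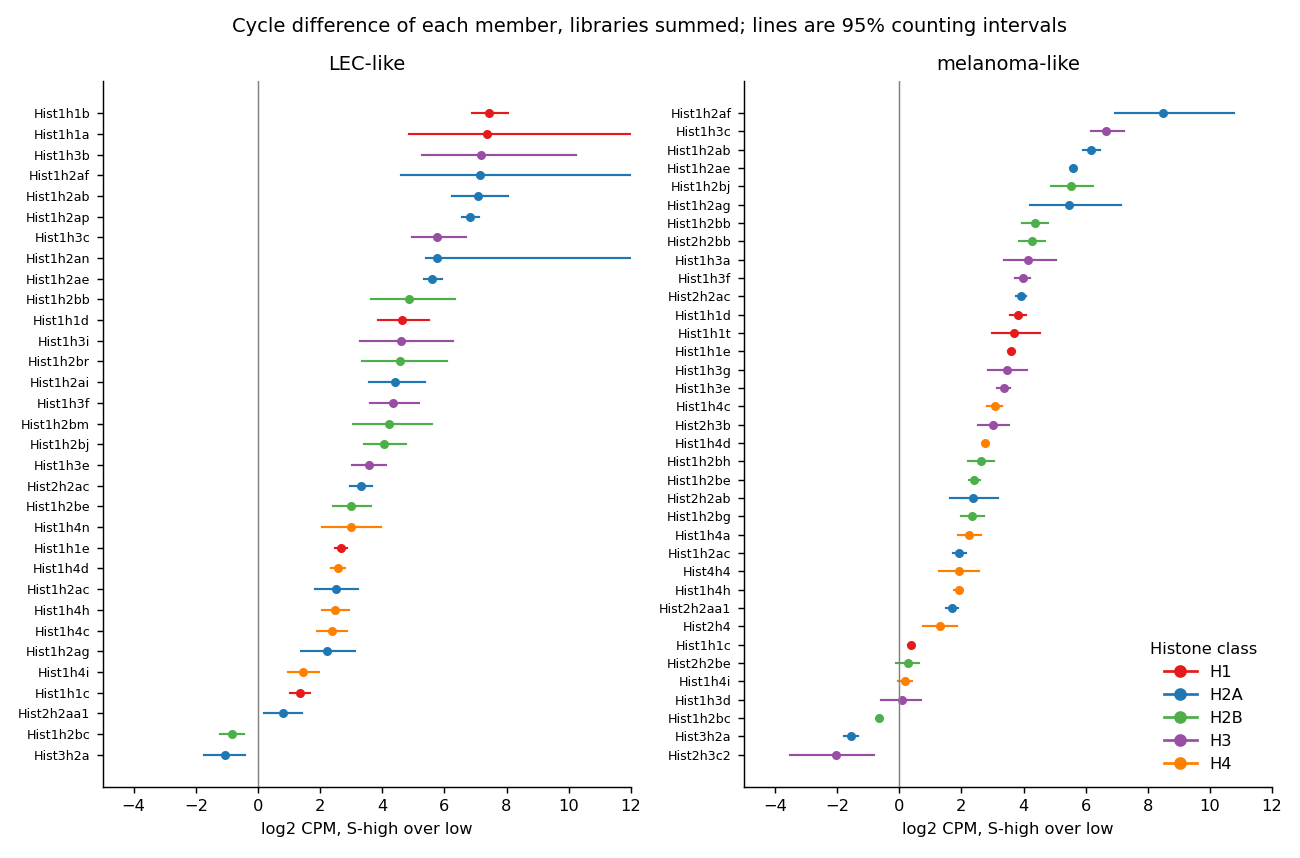
Log2 ratio of CPM in S-high over low barcodes (x axis) for each member with at least 50 UMIs in the comparison (y axis), both libraries summed, in LEC-like (left) and melanoma-like (right) barcodes, with points colored by histone class and lines for exact 95% counting intervals, clipped at 12. In both panels Hist3h2a and Hist1h2bc lie below 0, at −1.06 and −0.84 and at −1.55 and −0.65, and the point of Hist1h2an is its lower bound because low barcodes had 0 UMIs.

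The order of members was compared with the length of their models past the stem-loop, as a description only. Members that end within 100 bases after the motif had a median log2 ratio of 4.14 in LEC-like (12 ranked) and 4.35 in melanoma-like barcodes (9 ranked), with both libraries summed. Members that run further with an AATAAA had 2.75 (6 ranked) and 2.17 (10 ranked), and those that run further without one 2.61 (6 ranked) and 2.77 (9 ranked). Models with no match had 5.18 (8 ranked) and 2.71 (8 ranked), and their range was wide, from −0.84 for Hist1h2bc to 7.43 for Hist1h1b in LEC-like barcodes. Hist3h2a, the lowest in LEC-like barcodes at −1.06, is in the group with an AATAAA, and so is Hist1h2ae at 5.62. Whether a given UMI comes from a polyadenylated transcript was not tested.

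S-high barcodes also differed from G2M-high ones, although many S-high barcodes were high on the G2 and M list too. The median S-high barcode was above the G2M-high cut of 20 in BEC-like Cre plus, at 36.0, and in melanoma-like barcodes, at 24.2 and 31.0. It was below that cut in LEC-like barcodes, at 13.3 and 7.83, and in BEC-like Cre minus, at 16.5. The sum of members was 1.10 (log2) higher in S-high than in G2M-high LEC-like barcodes of Cre plus and 2.46 higher in Cre minus, 3.01 higher in BEC-like Cre plus and 0.86 and 0.70 higher in melanoma-like barcodes. In BEC-like Cre minus it was lower, at −0.33 [−0.45, −0.21], where 1 G2M-high barcode held 990 of 1235 member UMIs. G2M-high barcodes in turn had more than low ones in every class and library, with log2 ratios of 2.97 and 1.18 in LEC-like, 1.24 and 3.53 in BEC-like and 1.48 and 1.73 in melanoma-like barcodes.

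**Figure D3:**
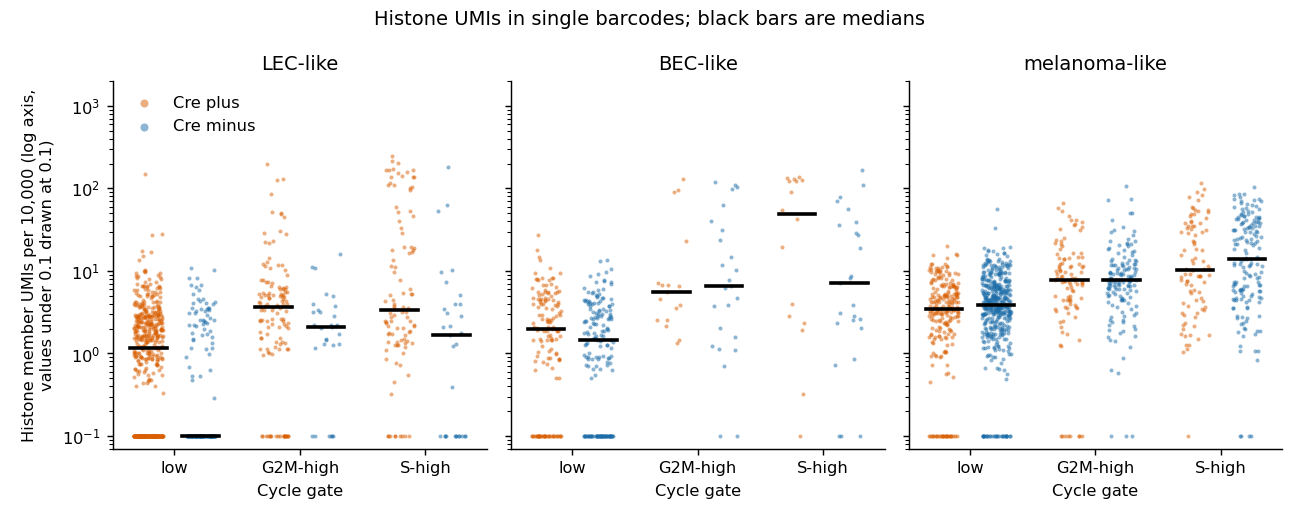
UMIs of the 61 members per 10000 UMIs in each barcode (y axis, log scale, values under 0.1 drawn at 0.1) by cycle gate (x axis) for Cre plus (orange) and Cre minus (blue) in 3 cell classes, with black bars at the medians. S-high LEC-like barcodes of Cre plus spread from near 0 to 250.4 per 10000 around a median of 3.35, so that the sums are carried by a minority of barcodes.

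The members' UMIs were concentrated in few barcodes. The richest 10% of barcodes held 86.2% and 81.6% of member UMIs in LEC-like, 77.2% and 83.8% in BEC-like and 66.5% and 69.0% in melanoma-like barcodes. The median S-high LEC-like barcode had 3.35 member UMIs per 10000 in Cre plus (quartiles 1.42 and 29.9) against 1.68 in Cre minus (0 and 3.95), against 1.15 and 0 in low barcodes. Medians of S-high barcodes were 48.4 and 7.18 in BEC-like and 10.3 and 14.0 in melanoma-like barcodes, against 1.98 and 1.45, and 3.47 and 3.89, in low ones. Barcodes with at least 20 member UMIs per 10000 were counted as histone-high. In LEC-like barcodes these were 46 of 850 in Cre plus, 5.41% [3.99, 7.15], against 3 of 238 in Cre minus, 1.26% [0.26, 3.64]. They made up 26 of 100 and 3 of 31 S-high barcodes, 26% [17.7, 35.7] and 9.68% [2.04, 25.8], so that most S-high barcodes were not histone-high in either library. The shares were 6.76% and 7.14% in BEC-like and 10.8% and 11.8% in melanoma-like barcodes, with overlapping intervals in each pair. Of the histone-high barcodes 26 of 46 in LEC-like Cre plus, and 33 of 51 and 73 of 96 in melanoma-like barcodes, were S-high. These intervals treat barcodes of 1 library as separate draws, by the Clopper-Pearson method.

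The genotype comparison in LEC-like barcodes asked how these genes differ between the Cre plus and Cre minus libraries. Hist1h1b and Hist1h2ap were known from earlier results to be higher in Cre plus, so their difference is a description. The members had 20289 UMIs in Cre plus against 863 in Cre minus, or 1189 and 412 CPM, a log2 ratio of 1.53 [1.43, 1.63]. Of the 44 members with at least 20 UMIs in the comparison, 28 were at least 2-fold higher in Cre plus, and 1 was at least 2-fold lower. Of all genes tested 10.1% were higher and 1.98% lower. Over all genes, LEC-like barcodes held 17058252 UMIs in the Cre plus library but 2096979 in the other. Genes thus met the minimum mostly through Cre plus counts, which favors genes that are high there. This holds for members and for all genes tested, so the counts of higher and lower members are a description. The median of the members was 1.32, against 0.28 for all genes, and 25 of the 44 intervals lay above 0 and 0 below. The 17 other members had 18 UMIs or fewer in Cre plus and 4 or fewer in Cre minus. Without the richest barcode of each library the log2 ratio was 1.90, and without the 5 richest 2.51. The same number was left out of 850 Cre plus and 238 Cre minus barcodes, which is a larger part of Cre minus. There 1 barcode held 243 of the 863 member UMIs. Without barcodes high on either cycle list the ratio was 0.85.

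By histone class the log2 ratio was 1.57 [1.35, 1.80] for H1, 1.83 [1.68, 1.98] for H2A, 0.71 for H2B, 1.44 for H3 and 1.01 for H4. Hist1h1b gave 2003 of the 4174 H1 UMIs of Cre plus and Hist1h2ap 6260 of the 11196 H2A UMIs, so the H1 and H2A values rest in large part on the pair of genes known beforehand. Hist1h1b had 2003 UMIs in Cre plus against 51 in Cre minus, 117 and 24.3 CPM (2.27 [1.87, 2.70]). Hist1h2ap had 6260 and 169 UMIs, 367 and 80.6 CPM (2.19 [1.97, 2.42]), and Hist1h2ae 2617 and 104 UMIs, 153 and 49.6 CPM (1.63 [1.35, 1.93]). All 3 also had a log2 ratio above 5 between S-high and low barcodes of LEC-like Cre plus. Higher point values came from members with 1 UMI in Cre minus, Hist1h2br with 95 against 1 UMI (3.55 [1.03, 8.86]), Hist1h3i with 71 against 1 (3.13 [0.60, 8.45]) and Hist1h2bn with 44 against 1 (2.44 [−0.12, 7.77]), which were named after their values were seen. Hist1h3e stood at 2.06, Hist1h4d at 1.57, Hist1h3f at 1.55, Hist1h2ab at 1.49, Hist1h3c at 1.27, Hist1h1e at 1.23 and Hist1h1c at 1.08. Hist1h2bc, with 688 and 74 UMIs or 40.3 and 35.3 CPM, stood at 0.19 [−0.15, 0.56], and Hist3h2a, with 225 and 20 UMIs, at 0.47 [−0.19, 1.21]. Both were also lower in S-high than in low LEC-like barcodes. Below 0 were Hist1h3g with 15 and 5 UMIs (−1.44 [−2.97, 0.38]), Hist1h4a at −0.70 and Hist1h1a at −0.24, with intervals that include 0.

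**Figure D4:**
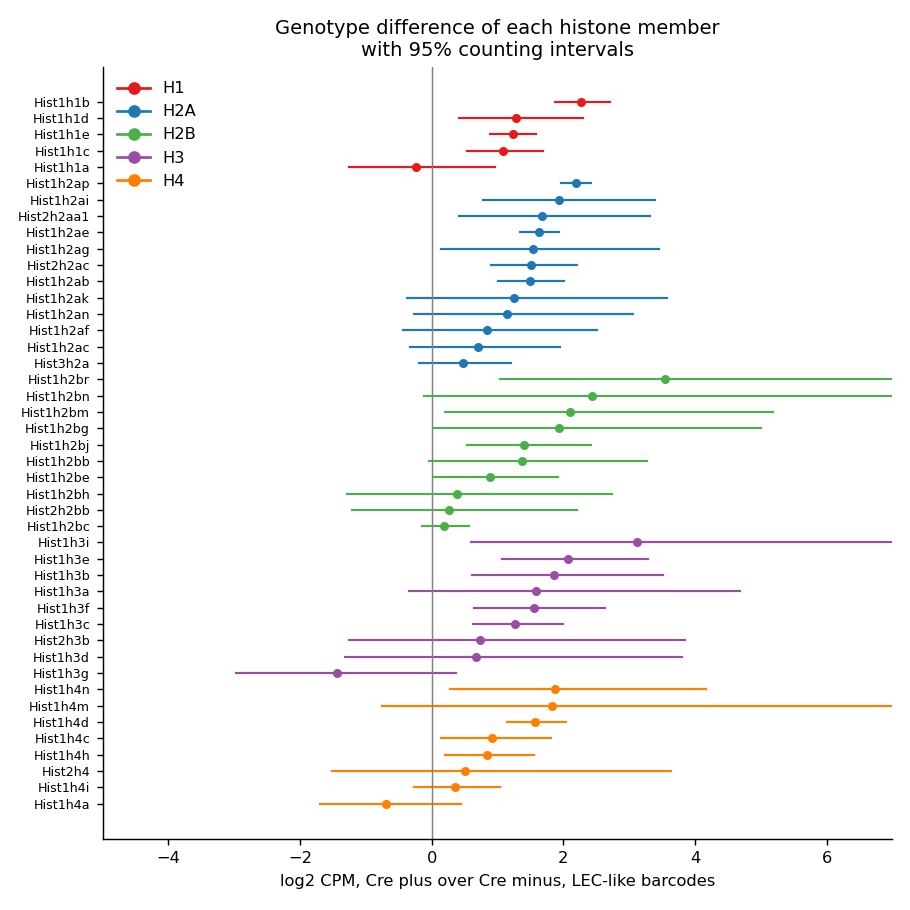
Log2 ratio of CPM, Cre plus over Cre minus, in LEC-like barcodes (x axis) for the 44 members with at least 20 UMIs (y axis), colored by histone class, with exact 95% counting intervals as lines, clipped at 7. Of the points 41 lie above 0, and Hist1h1b and Hist1h2ap have narrow intervals at 2.27 and 2.19. The UMI minimum favors members high in Cre plus, the library with more LEC-like UMIs.

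Several properties of the LEC-like barcodes were read beside these genes. The share of S-high barcodes was 11.8% [9.68, 14.1] (100 of 850) in Cre plus against 13.03% [9.02, 18.0] (31 of 238) in Cre minus. With each barcode thinned to 2000 UMIs, which left out 75 and 12 barcodes, it was 15.9% [13.4, 18.6] and 14.2% [9.89, 19.4]. The intervals overlap in both pairs. Of the genes of the G2 and M list 14 of 41 were at least 2-fold higher in Cre plus, with a median of 0.86, and of the S-phase list 3 of 36, with a median of 0.17, where 10.1% of all genes were higher and their median was 0.28. The median depth of S-high barcodes was 33145 against 10490 UMIs, and 65% and 25.8% of them were Malat1-rich. The ratio of members was read within these groups: it was 1.66 [1.51, 1.82] for Malat1-rich and 1.07 [0.93, 1.21] for Malat1-poor barcodes, 1.22 [1.10, 1.34] among S-high, 2.58 [2.26, 2.92] among G2M-high and 0.79 [0.55, 1.04] among low barcodes. Among S-high barcodes it was 1.47 in Malat1-rich and 1.06 in Malat1-poor ones. It was above 0 in each of these groups, but they overlap and come from the same 2 libraries, so they are not separate results. In Cre minus, G2M-high barcodes held 78 member UMIs and S-high Malat1-rich ones 230. In Cre plus, 1 G2M-high barcode held 1418 of 5416. Whether depth, Malat1 content or cycle accounts for the difference was not tested. The share of barcodes with any member UMI was 70.7% and 45.8%, and 35.4% and 19.9% at 2000 UMIs each.

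In BEC-like barcodes the sum was 0.07 [0.00, 0.14], with 0 of 35 members at least 2-fold higher (3.75% of all genes) and 2 lower (1.4%), Hist1h3b with 11 and 20 UMIs and Hist1h2bj with 37 and 59. Strata of this class went opposite ways. The ratio was 1.46 among S-high and −1.88 among G2M-high barcodes, where 1 Cre minus barcode held most UMIs, and 0.53 in Malat1-rich and −0.78 in Malat1-poor ones. Among S-high barcodes it was 3.55 in Malat1-rich and −2.05 in Malat1-poor ones, of 16 and 25 S-high barcodes in all. Hist1h2ap stood at 0.49 [0.35, 0.63] and Hist1h1b at −0.39 [−0.68, −0.10]. In melanoma-like barcodes, which carry no host genotype, the sum was 0.03 [0.01, 0.05], with 1 of 43 members at least 2-fold higher (1.56% of all genes) and 0 lower (1.8%). Hist1h2ae stood there at 285 and 299 CPM, Hist1h2bc at 264 and 236 CPM and Hist1h4d at 75.4 and 77.6 CPM. The difference of the LEC-like from the other classes' ratios was not tested, since each rests on 1 library per genotype.

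Part of the family was at or near 0 in melanoma-like barcodes. With libraries summed, 14 of the 61 members were at least 20-fold lower in melanoma-like than in endothelial (LEC-like and BEC-like) barcodes, where 8.23% of all genes tested were. Members with fewer than 20 UMIs in this comparison, named below, are among the 61 but could not be called. The 14 had 37 UMIs in melanoma-like and 11961 in endothelial barcodes. They thus met the minimum almost wholly through the side where they are high, and their count is a description. Of the 14, 12 passed in each library alone, where 6.28% of all genes did, and the exceptions were Hist1h4m and Hist1h2bf, which had 2 and 3 endothelial UMIs in Cre minus. Of the 14, 11 lie in the first block of histone genes on chromosome 13, from 21716422 to 21837530 (GRCm38), a stretch of 121 kb with 15 members. These 15 members had 25 of 95479311 UMIs in melanoma-like barcodes and 11645 of 26506413 in endothelial ones. The 3 other annotated genes of the block had too few UMIs to compare. Among genes before the block that are no members, Nkapl, singled out after its value was seen, had 1 and 97 UMIs (−8.45 [−13.8, −5.94]), while Zscan26 stood at −1.93 and Trim27 at −0.75.

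Hist1h2ap (chr13:21833026-21833507) had 11 UMIs in melanoma-like barcodes, 8 of them from Cre plus, and 8225 in endothelial ones, a log2 ratio of −11.40 [−12.40, −10.56]. Hist1h1b (chr13:21779883-21780625) had 4 and 2467 UMIs (−11.12 [−12.99, −9.76]). Hist1h2ai had 1 and 235 UMIs, Hist1h2br 1 and 123, Hist1h4n 2 and 117, and Hist1h2ak 6 and 83. Another 5 had 0 UMIs in melanoma-like barcodes. Against a floor of 3 UMIs over the group, Hist1h2an was at least 122-fold lower, Hist1h3i at least 119-fold, Hist1h2bm at least 109-fold, Hist1h2bn at least 81.6-fold and Hist1h4m at least 42.0-fold. The other 4 members of the block, Hist1h3h, Hist1h4j, Hist1h4k and Hist1h2bp, had fewer than 20 UMIs in this comparison, with 0, 2, 0 and 0 in melanoma-like barcodes. Every member of the block was thus at 11 UMIs or fewer in melanoma-like barcodes.

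**Figure D5:**
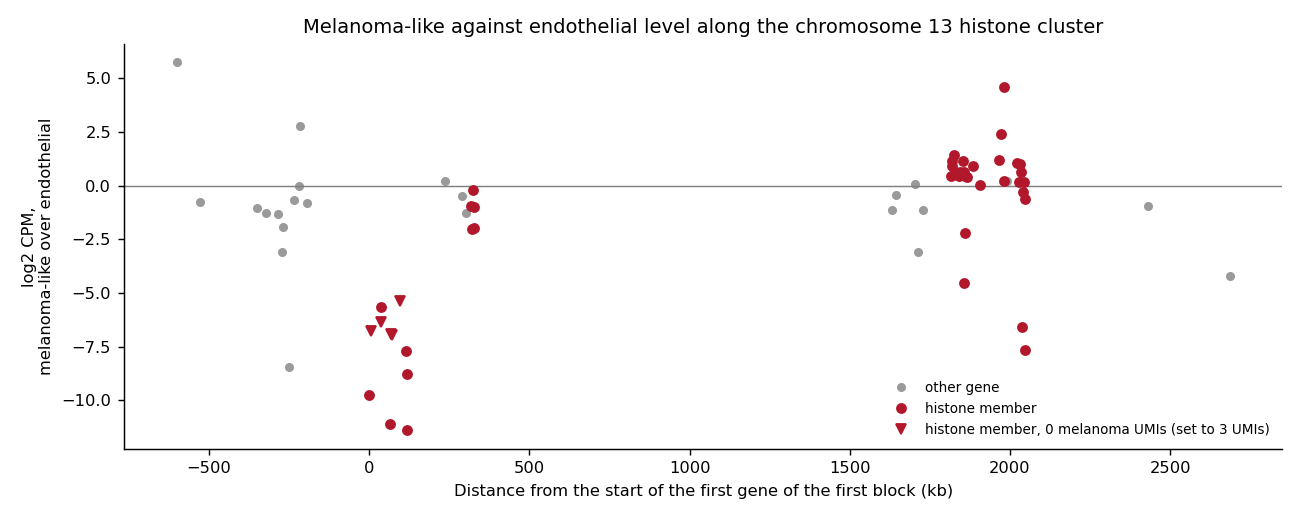
Log2 ratio of CPM in melanoma-like over endothelial barcodes (y axis), both libraries summed, against distance from the start of the first block of histone genes on chromosome 13 in kb (x axis), for histone members (red) and other genes (grey) with at least 20 UMIs, with triangles for members at 0 melanoma-like UMIs, set to 3. All red points of the first block lie below −5, while most of the later members lie between −2.19 and 4.61 and 1 grey point before the block, Nkapl, lies at −8.45.

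Outside the block the pattern was different. In the second block, near the first, Hist1h2bj had 610 melanoma-like and 343 endothelial UMIs (−1.02), Hist1h4i 1134 and 366 (−0.22), Hist1h2ag 138 and 150 (−1.97), Hist1h2ah 56 and 30 (−0.95) and Hist1h2bk 27 and 30 (interval −2.81 to −1.20). In the third and longest block 3 members passed the 20-fold mark: Hist1h3b with 7 and 184 UMIs (−6.57 [−7.90, −5.49]), Hist1h1a with 2 and 113 (−7.67 [−10.7, −5.78]) and Hist1h2bf with 3 and 19 (−4.51 [−6.91, −2.75]). Genes on either side of them differed. Beside Hist1h2bf lie Hist1h2ad, which was also lower at −2.19 [−2.99, −1.41], and Hist1h2bg at 0.65 [0.31, 1.00]. Beside Hist1h3b lie Hist1h2ab at 0.61 [0.51, 0.71] and Hist1h4b at −0.31 [−1.05, 0.48], and beside Hist1h1a lies Hist1h3a at −0.63 [−1.04, −0.20]. Higher in melanoma-like barcodes were Hist1h1t with 176 and 2 UMIs (4.61 [2.74, 7.67]), Hist2h2be with 475 and 11 (3.58 [2.73, 4.60]) and Hist1h2bc with 246 and 46.6 CPM (2.40 [2.32, 2.49]). Hist1h1e was level, at 80.4 and 79.9 CPM (0.01 [−0.06, 0.08]).

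Shares of barcodes with a UMI, like CPM, placed melanoma-like barcodes lowest for Hist1h2ap and Hist1h1b and highest for Hist1h2ae and Hist1h2bc. Between the BEC-like libraries the shares of Hist1h1b and Hist1h2ae were in the opposite order to their CPM. Hist1h2ap was found in 24.4% and 5.88% of LEC-like and 19.8% and 11.3% of BEC-like barcodes but in 1.48% [0.60, 3.03] and 0.37% [0.08, 1.07] of melanoma-like barcodes, whose median depth was higher. Hist1h1b was found in 9.53% and 2.94%, 6.76% and 6.30%, and 0.64% and 0.12% of the same classes. Free RNA can give single UMIs. Its level was not measured, so whether the melanoma-like UMIs of these genes come from the cells was not tested. Hist1h2ae, with 22.1% and 7.56% in LEC-like and 16.4% and 13.03% in BEC-like barcodes, was found in 50.4% and 53.7% of melanoma-like ones, and Hist1h2bc in 72.9% and 78.5%. For Hist1h2bc the shares were 26.2% and 13.9% in LEC-like and 40.6% and 23.5% in BEC-like barcodes.

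Genes that make, process and place histones were read beside the members. None of them is in a cycle list. Of 9 genes of histone gene transcription, 6 were at least 2-fold higher in S-high than low LEC-like barcodes of Cre plus, where 6.3% of all genes were, and 5 of 9 in melanoma-like barcodes of each library, where 8.38% and 7% were. In BEC-like barcodes 6 of 8 and 4 of 8 were higher (8.69% and 13% of all genes), and 1 was at least 2-fold lower in Cre plus. Npat, the coactivator of histone gene transcription, stood at 0.69 [0.40, 0.97] in LEC-like Cre plus and at 0.67 and 0.43 in melanoma-like barcodes, and Casp8ap2, a partner at histone loci, at 1.83 [1.59, 2.07] and at 1.75 in melanoma-like barcodes of Cre plus. Cdk2, the kinase that acts on Npat, stood at 1.09 in LEC-like Cre plus and at −0.01 and −0.11 in melanoma-like barcodes. Of 13 genes of stem-loop processing and decay, 11 were measured and 3 were at least 2-fold higher in LEC-like Cre plus, with a median of 0.32 against −0.02 for all genes, 2 and 3 of 11 in melanoma-like and 3 and 3 of 11 in BEC-like barcodes. Slbp, the stem-loop binding protein, was among them with 164 against 59.4 CPM (1.46 [1.29, 1.64]), and it stood at 1.74 and 1.70 in melanoma-like barcodes. Lsm1, which acts in mRNA decay, stood at 0.29 in LEC-like Cre plus.

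Of 14 genes that bring histones to new DNA, 10 were at least 2-fold higher in S-high LEC-like barcodes of Cre plus (6.3% of all genes), 8 in melanoma-like barcodes of each library (8.38% and 7%), and 9 and 11 of 13 in BEC-like barcodes (8.69% and 13%). Nasp, a chaperone of H3 and H4, had 239 against 47.1 CPM in LEC-like Cre plus (2.34 [2.17, 2.52]) and stood at 2.47 and 2.19 in melanoma-like barcodes, and Nap1l1, a chaperone of H2A and H2B, stood at 1.18. Genes that handle histones outside replication gave 0 of 6 in LEC-like Cre plus and in melanoma-like barcodes of both libraries. They gave 1 of 6 in each BEC-like library, and in LEC-like Cre plus Atrx stood at −0.03 and Anp32e at 0.87. In LEC-like Cre minus, with 31 S-high barcodes, 4 of 6 of them were at least 2-fold higher, as were 4 of 6 transcription genes, 6 of 10 stem-loop genes and 7 of 10 genes of deposition on new DNA, of which 1 more was at least 2-fold lower. In that comparison 14% of all genes were higher, and the median of all genes was 0.26.

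Replacement histones, variants that in large part are made and placed outside replication, differed in degree. At least 2-fold higher in S-high barcodes were 6 of 9 in LEC-like Cre minus (14% of all genes), 5 and 6 of 10 in BEC-like barcodes (8.69% and 13%) and 4 of 9 and 4 of 10 in melanoma-like barcodes (8.38% and 7%). In LEC-like Cre plus they were 4 of 11 (6.3%): H2afx at 2.16 [1.86, 2.47], H1fx at 1.37, H2afz at 1.36 [1.30, 1.42] and the centromeric Cenpa at 1.30. H2afz, the H2A.Z gene, had 1326 against 518 CPM. The others stood at 0.61 for H2afv, 0.49 for H1f0, 0.32 for H2afy, 0.23 for H3f3b, −0.03 for H2afy2, −0.10 for H3f3a and −0.17 for H2afj. The H3.3 genes H3f3a and H3f3b had 1068 and 1043 CPM in S-high barcodes of LEC-like Cre plus. Hist1h3c had 74.8 CPM there and 1.37 CPM in low barcodes, and all H3 members together 224 and 11.0 CPM. These values do not give the ratio of the mRNAs in the cell, since poly(A)-primed libraries capture stem-loop ends poorly. In melanoma-like barcodes Cenpa stood at 2.61 and 3.79, H2afx at 1.48 and 1.86, H2afz at 1.30 and 1.56, H3f3a at −0.16 and −0.21, H3f3b at 0.13 and 0.33 and H2afj at 0.03 and −0.11.

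The same lists were read for the genotype difference in LEC-like barcodes. At least 2-fold higher in Cre plus were 0 of 9 transcription genes and 0 of 11 stem-loop genes, where 10.1% of all genes were. Chaperones of new DNA gave 1 of 14, genes that handle histones outside replication 0 of 6, and replacement histones 0 of 11. The medians of these lists, in this order, were 0.56, 0.42, 0.30, 0.43 and 0.48, against 0.28 for all genes and 1.32 for the members. Slbp had 81.8 and 47.2 CPM (0.79), Npat stood at 0.44, Casp8ap2 at 0.56, H2afx at 0.77, Cenpa at 0.69, H3f3b at 0.65, H2afz at 0.27 and H3f3a at −0.05. No test compared the lists with the members.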

How the data were processed

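Single-cell 3′ RNA was measured in 1 library per genotype. The deposited matrices hold counts: whole-number UMIs per gene and barcode for 32285 genes, per the file headers. Cell Ranger 7.0.0 and mm10 are named in the submitters' processing notes. The annotation, and how reads shared by histone copies were counted, are not given in the sources used here. Coordinates and transcript models are GENCODE M21 on GRCm38, and promoters are RefSeq GRCm38.p6.

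The libraries held 2491 and 2502 barcodes with 66704257 and 76967583 UMIs (Cre plus, then Cre minus, in this order throughout). The 1782 and 1552 barcodes with 500 or more genes and mitochondrial UMIs below 10% were kept. Marker lists then assigned classes in UMIs per 10000: LEC-like and BEC-like needed at least 5 from 5 pan-endothelial genes and from their own list and under 20 from the melanoma list, and melanoma-like at least 20 from that list and under 5 pan-endothelial. Doublets were not called, and barcodes with both kinds of marker stayed unassigned. Near a cut lay 53 barcodes for the endothelial ratio, 239 for the melanoma and 250 for the pan-endothelial list, and 207 of 2819 for the S-phase list.

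Sums of UMIs over the barcodes of a class were scaled to CPM. Ratios have exact conditional binomial intervals, levels Poisson and shares Clopper-Pearson intervals, at 95%. A group at 0 was set to 3 UMIs. With 1 library per group no test was made. Members and lists were chosen with earlier results of these data known. The class and cycle cuts, the 20-fold mark and the histone-high mark were set after seeing the data. Genes are named by a rule: the 3 members of each class with the most UMIs, the 4 highest and lowest cycle ratios in LEC-like and melanoma-like barcodes among members with 50 UMIs, the 3 highest genotype ratios in LEC-like barcodes ranked by the interval bound nearest to 0 (no interval lay below 0), Npat, Slbp, Casp8ap2, the 2 most counted genes of each list and all replacement histones. Of the listed genes, Symplk had no row under that spelling. Alternatives changed the barcode filter, scaling, depth, marker gate, S-phase cut and UMI minimum, averaged over barcodes, kept Malat1-rich or Malat1-poor barcodes, or left out cycling or the richest barcodes. Scripts were tested on simulated data. Python 3.11.15, numpy 2.4.6, scipy 1.17.1, pandas 2.3.3 and matplotlib 3.10.9 were used.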

Additional observations from a re-analysis of the deposited data

Results flagged for a closer look

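The genotype difference of the summed members went opposite ways in LEC-like and BEC-like barcodes in 3 strata, with both counting intervals off 0. Among G2M-high barcodes it was 2.58 in LEC-like and −1.88 in BEC-like barcodes, a gap of 4.46 (log2), and 1 Cre minus BEC-like barcode held 990 of 1235 UMIs. Among Malat1-poor barcodes it was 1.07 and −0.78, a gap of 1.85. Among barcodes both S-high and Malat1-poor it was 1.06 and −2.05, a gap of 3.11. These differences were not tested, since each value rests on 1 library per genotype.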

How the results depend on the processing

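No paired analysis was possible because each genotype has 1 library. Values are log2 ratios, given for Cre plus and then Cre minus. Of the summary values recomputed, 65 stayed within the counting interval of the reported value, or for the count of members within 1.5 times, and 68 moved out of it. None of those at least 2-fold changed sign. Scaling, the looser barcode filter (200 genes or more, mitochondrial UMIs below 20%), the UMI minimum and a 10-fold mark moved none. An S-phase cut of 15 gave 4.04 in BEC-like Cre plus and 2.22 and 2.48 in melanoma-like barcodes for the cycle difference. A cut of 30 gave 4.75 and 4.15 in BEC-like, 4.21 in LEC-like Cre minus and 2.496 and 2.46 in melanoma-like barcodes. With 1000 genes or more and mitochondrial UMIs below 5% the cycle difference was 2.996 in BEC-like Cre minus and 2.41 and 2.52 in melanoma-like barcodes, and the genotype difference −0.0459 in BEC-like and −0.0867 in melanoma-like barcodes. Thinned to 2000 UMIs, the cycle difference was 3.81 and 3.52 in BEC-like, 3.93 and 3.27 in LEC-like and 2.22 and 2.10 in melanoma-like barcodes, the genotype difference 0.44 in BEC-like and 1.41 in LEC-like barcodes, and 2 members were 20-fold lower in melanoma-like barcodes, where fewer UMIs were left. As a mean over barcodes, the cycle difference of Cre minus was 3.63 in BEC-like, 3.30 in LEC-like and 2.21 in melanoma-like, and the genotype difference 0.34, 1.41 and −0.0569 in the same classes. Malat1-poor barcodes gave cycle differences of 2.54 and 5.09 in BEC-like, 4.67 in LEC-like Cre plus and 1.96 and 2.19 in melanoma-like, genotype differences of −0.78 in BEC-like, 1.07 in LEC-like and −0.0226 in melanoma-like barcodes, and 8 members 20-fold lower. Malat1-rich barcodes gave 4.44 and 1.41, 3.97 in LEC-like Cre plus, and 2.40 and 2.49, with genotype differences of 0.53 in BEC-like and 1.66 in LEC-like barcodes. A stricter marker gate gave a cycle difference of 2.75 in BEC-like Cre minus and genotype differences of 0.27 in BEC-like and 0.0515 in melanoma-like barcodes. Without cycling barcodes the genotype difference was 0.50, 0.85 and 0.0505 in BEC-like, LEC-like and melanoma-like barcodes. The richest barcodes were left out after seeing the data, the same number from each group whatever its size. Without the richest 1 of each group the cycle difference was 3.98 and 2.55 in BEC-like, 3.98 and 3.04 in LEC-like and 2.22 and 2.39 in melanoma-like, and the genotype difference 0.36, 1.90 and −0.0120. Without the richest 5 the cycle difference was 2.97 and 2.18, 3.55 and 0.69, and 1.82 and 2.18, and the genotype difference 0.37, 2.51 and −0.0499. Except where stated, the cause was not tested. For single named members, 67 values of at least 2-fold were recomputed 860 times, always in the same direction and 844 times still at least 2-fold. LEC-like Cre minus held 863 member UMIs, of which 243 came from 1 barcode.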

Other observations

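Smaller classes also carried member UMIs. Macrophage-like barcodes numbered 57 in Cre plus against 69 in Cre minus and had 558 [526, 591] and 1231 [1188, 1275] CPM of the members. Pericyte and fibroblast-like barcodes, 33 and 21, had 1113 and 3256 CPM. H2A genes gave 49.5% and 52.6% of the member UMIs of the latter. The T and NK-like class had 6 and 9 barcodes with 201 and 2397 member UMIs, or 1136 and 10468 CPM, the highest level of any class in Cre minus, and 2 of the 9 Cre minus barcodes were S-high. Platelet or red cell-like barcodes, 8 and 3, had 24 and 1 member UMIs. Unassigned barcodes had 1178 and 1029 CPM, with 28.4% and 24.97% of member UMIs from H2B.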
